A study of Caenorhabditis elegans with 2 samples.

Results

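In *Caenorhabditis elegans*, 33 protein-coding genes are named as subunits of the proteasome, with pas- or pbs- for the 20S core and rpt- or rpn- for the 19S regulatory particle. They were chosen by gene name alone from 19973 protein-coding genes on the 6 nuclear chromosomes, but the group was picked with earlier peak results of these data known, so its shares below are descriptions. All 33 symbols were also in the RefSeq gene table. The binding data were peak lists from chromatin immunoprecipitation and sequencing (ChIP-seq) of UNC-130, a forkhead transcription factor of the FoxD class. There was a single group of 2 biological replicates, each of whole L1 larvae of mixed sex from strain OP77, with the genotype unc-119(ed3) III; wgIs77. This strain carries an integrated transgene for an eGFP-tagged UNC-130, and the labels do not say how far the tagged protein follows the level of the native one. The description of the samples names the fusion protein as the target, whereas the antibody label names unc-130. A control named in the labels was not analysed here. Since whole larvae were used, strong occupancy in a few cells and weak occupancy in many cannot be told apart.

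The proteasome degrades proteins that carry ubiquitin chains. Its 20S core is a stack of rings, in which the outer alpha rings gate the entrance and the inner beta rings hold the proteolytic sites. The 19S particle caps the core: its base unfolds substrates with a ring of AAA ATPases, and its lid removes ubiquitin. The subunits are needed in fixed proportions in nearly every cell, and in *C. elegans* the transcription factor SKN-1A raises proteasome gene expression when proteasome function falls.

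UNC-130 peaks were found within 2000 bp of most proteasome genes, and most of the nearest ones lay within 500 bp upstream. Of the 33 genes, 20 (60.6%, 95% Wilson interval 43.7 to 75.3) had a peak summit within 2000 bp of their 5′ end in the optimal list, against 15.4% of all protein-coding genes. The optimal list holds the 2631 pooled peaks of highest signal, kept by the authors at a reproducibility threshold. Of these peaks, 57.2% were among the 2631 highest in both replicates, so a listed peak need not be high in each. Within 500 bp, a summit was found for 17 proteasome genes (51.5%, interval 35.2 to 67.5), against 8.99% of all genes. When each summit was given only to the gene with the nearest 5′ end, 16 proteasome genes (48.5%) kept one, against 9.33% of all genes. Intervals here and below count genes or peaks and hold only the counting error.

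The sequences below show what lay under the summits of 7 of these peaks, taken in order of pooled signal among those nearest to the proteasome gene itself, and not the 7 strongest of all 20. Each reaches 50 bp to either side of the summit, from the RefSeq sequence of WBcel235 (ce11), 5′ to 3′ on the strand of the proteasome gene. Capitals mark matches on either strand to GTCAT and ATCAT, cores of the site of SKN-1, and to the forkhead heptamers TGTTTAC and TGTTTGC. They cover chrIII:8447123-8447223 (plus strand, rpn-3), chrV:6017764-6017864 (minus, rpt-2), chrIII:12370161-12370261 (plus, rpt-6), chrIII:6342197-6342297 (minus, rpn-13), chrV:11982461-11982561 (minus, rpt-1), chrIV:1709904-1710004 (minus, pbs-1) and chrII:11652931-11653031 (plus, rpn-12).
rpn-3: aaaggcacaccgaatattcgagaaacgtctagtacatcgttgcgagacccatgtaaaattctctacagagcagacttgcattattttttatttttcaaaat
rpt-2: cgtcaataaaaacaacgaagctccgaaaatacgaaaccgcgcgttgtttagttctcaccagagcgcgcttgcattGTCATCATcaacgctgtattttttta
rpt-6: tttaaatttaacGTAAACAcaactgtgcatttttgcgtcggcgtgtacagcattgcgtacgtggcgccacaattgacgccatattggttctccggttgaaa
rpn-13: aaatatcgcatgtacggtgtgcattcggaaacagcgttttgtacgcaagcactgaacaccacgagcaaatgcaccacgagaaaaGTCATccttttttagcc
rpt-1: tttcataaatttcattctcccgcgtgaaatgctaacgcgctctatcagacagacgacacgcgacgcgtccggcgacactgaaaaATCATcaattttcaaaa
pbs-1: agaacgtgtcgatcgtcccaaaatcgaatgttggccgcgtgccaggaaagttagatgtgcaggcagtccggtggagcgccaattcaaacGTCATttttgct
rpn-12: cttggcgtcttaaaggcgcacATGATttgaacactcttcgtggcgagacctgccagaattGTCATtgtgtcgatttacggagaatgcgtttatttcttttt
A GTCAT copy stands to the right of the summit, which is the middle base, in the windows of rpt-2, rpn-13, pbs-1 and rpn-12. The window of rpt-1 holds ATCAT alone and that of rpt-6 a forkhead heptamer on the opposite strand. That of rpn-3, the proteasome gene with the highest of the nearest peaks, holds none of these letters.

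The nearest optimal summit lay upstream of the 5′ end at all 20 proteasome genes, as the map of summits shows. The median position was -194 bp, and 14 of the 20 summits were between 100 and 350 bp upstream. Among the 17 genes with a summit within 500 bp, positions ran from -387 to -3 bp with a median of -149 bp and quartiles of -260 and -143 bp. For the 1796 genes of the whole genome with a summit in this range, the median was -174 bp, the quartiles were -272 and -94 bp, and 92.4% were upstream. The proteasome genes' summits therefore sat at about the distance that is usual for this protein. The values nearest to the 2000 bp limit were 1158 bp (pbs-5), 1128 bp (pas-5) and 803 bp (pas-1) inside it, and 2379 bp (rpt-4), 7266 bp (rpn-2) and 8180 bp (pas-6) outside it, so no gene lay close to the limit on the inner side.

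**Figure D1:**
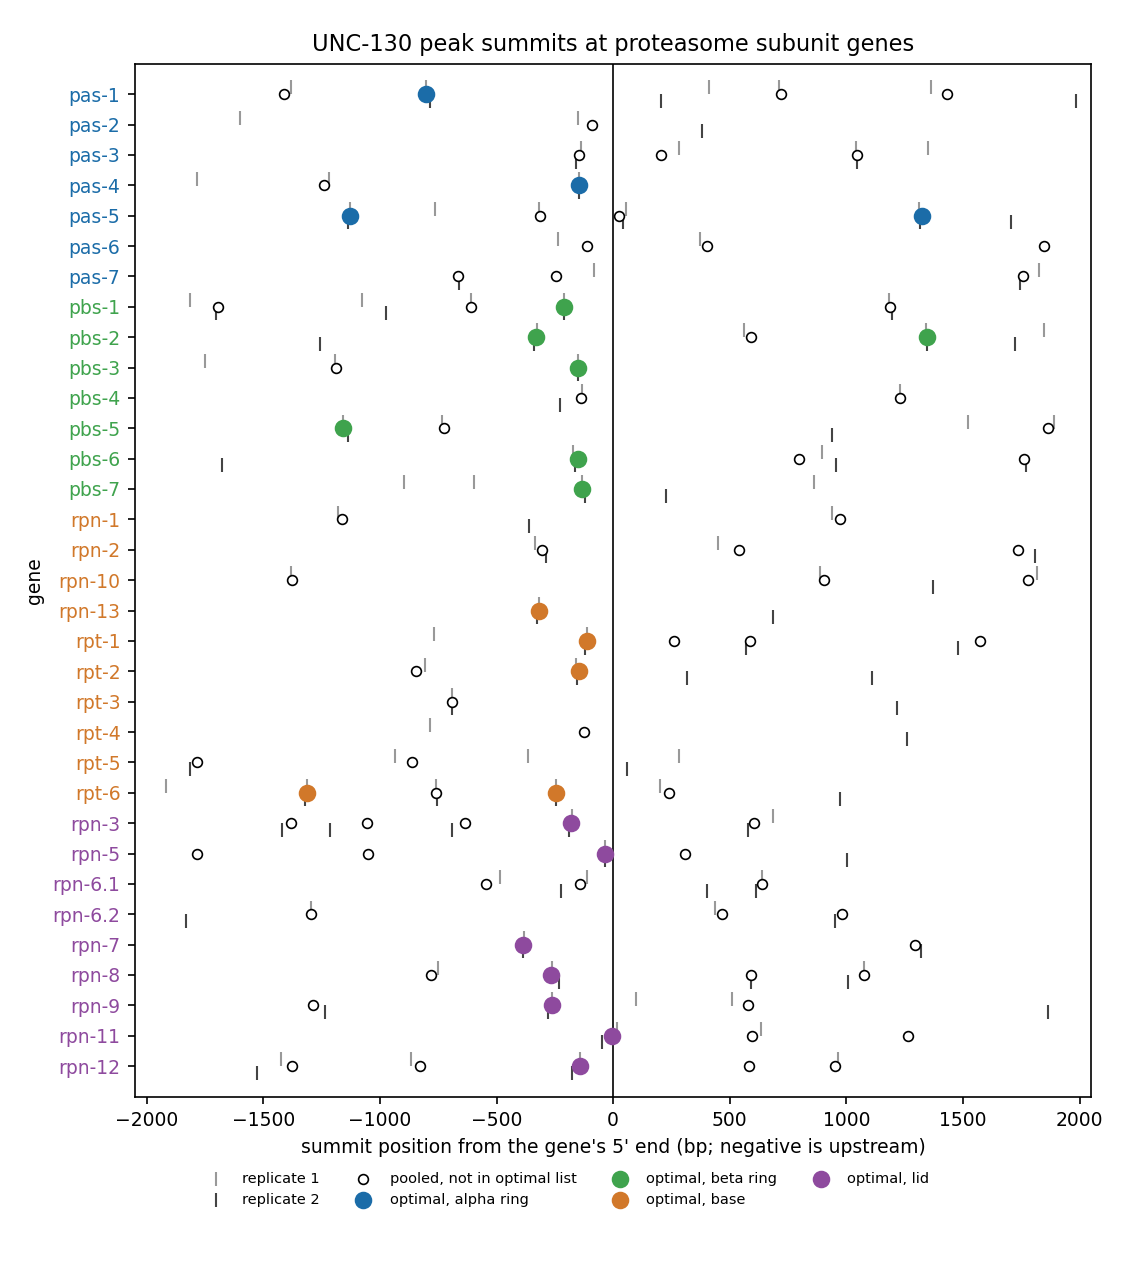
Summits within 2000 bp of the 5′ end of each of the 33 proteasome genes, in bp, with the gene drawn to run rightwards. Large coloured points are optimal peaks by subcomplex, open points are pooled peaks outside the optimal list, and ticks are the summits of replicate 1 (upper) and replicate 2 (lower). The coloured points gather left of the 5′ end, with a median of -194 bp for the nearest one of each gene.

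In the optimal list, the alpha ring had the fewest summits close by. Of its 7 genes, pas-1, pas-4 and pas-5 had an optimal summit within 2000 bp, and only pas-4 had one within 500 bp. The pas-4 peak ranked 421 of 2631 by pooled signal (60.7 in the authors' units, which are comparable only within a list) and lay 148 bp upstream. Its rank was 294 among the candidate peaks of replicate 1 and 1257 among those of replicate 2. This summit was shared, because the divergent gene rpb-3, for an RNA polymerase II subunit, had its 5′ end nearer, at 129 bp. At pas-5 the nearest summit stood 1128 bp upstream and ranked 1539, beside a small nucleolar RNA gene, F25H2.15, with ranks of 1544 and 1176 in the replicates. A second one, 1324 bp downstream of the pas-5 5′ end, ranked 1307 and was nearest to rla-0, a gene for a ribosomal stalk protein. Candidates outside the optimal list were closer to pas-5, the highest 314 bp upstream (pooled rank 4604, and rank 1794 at 318 bp in replicate 1). The weakest optimal peak of any proteasome gene was that of pas-1, with rank 2614 and signal 23.6, against 23.5 for the lowest optimal peak of all, and its ranks in the replicates lay far apart, at 2137 and 21767. It lay 803 bp upstream of pas-1 but 117 bp from rpoa-12, the gene for an RNA polymerase I subunit that ends 106 bp before pas-1 on the same strand. None of the 3 alpha-ring summits was thus both within 500 bp of the subunit gene and nearer to it than to any other protein-coding gene.

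Most beta-ring genes had a close summit. All but pbs-4 of the 7 genes had one within 2000 bp, 5 of them within 500 bp. The genes pbs-1, pbs-2 and pbs-5 are the orthologues of the subunits that carry the proteolytic sites in yeast and mammals, and each had a peak. That of pbs-1 ranked 676 (signal 50.3), 209 bp upstream, with ranks of 597 and 1315 in the replicates. The pbs-2 peak ranked 1445, with ranks of 1681 and 1815 in the replicates, and its summit was 332 bp from pbs-2 and 334 bp from eif-6, a divergent gene for a translation initiation factor. A far stronger summit, ranked 32, stood 1347 bp downstream of the pbs-2 5′ end and was nearest to the alpha-tubulin gene tba-2. The highest of the nearest peaks in the ring was that of pbs-5 (rank 247, signal 73.2, ranks 129 and 743 in the replicates), but it was 1158 bp away, inside the upstream gene K05C4.2 and 344 bp from the 5′ end of that gene. For the structural subunits, pbs-7 had a summit 134 bp upstream (rank 696), pbs-3 had one at 149 bp inside the upstream gene ulp-2 (rank 923), and pbs-6 had one at 149 bp (rank 1865). In the replicates, pbs-7 ranked 491 and 3478, pbs-3 ranked 770 and 2235, and pbs-6 ranked 2473 and 1449, so only pbs-6 of these stood higher in replicate 2. The beta ring thus combined many close summits with middling ranks, its median being 810.

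The base had few peaks, but they were high. Its 10 genes held 4 with an optimal summit, all within 500 bp and all with the base gene's own 5′ end nearest. The gene rpt-2, for one of the AAA ATPases, had the highest peak of the base (rank 121, signal 90.2), 145 bp upstream and 156 bp from the divergent aps-1, an adaptor complex subunit gene. In replicate 1 its rank was 70, in replicate 2 it was 562. Those of the other ATPase genes were at rpt-6 (rank 298, signal 68.6, 245 bp upstream; ranks 179 and 1063) and rpt-1 (rank 564, signal 54.1, 114 bp upstream; ranks 161 and 6775). The low rank of rpt-1 in replicate 2 was far outside the 2631 highest of that replicate. A further summit, 1311 bp upstream of rpt-6 (rank 2028), was nearest to the histone H3.3 gene his-72. The fourth base gene, rpn-13, for a ubiquitin receptor, had rank 430 (signal 60.4, 319 bp upstream; ranks 361 and 1425). The median rank of the base peaks was 364, while rpt-3, rpt-4 and rpt-5 of the same ATPase ring, the scaffold genes rpn-1 and rpn-2, and the ubiquitin receptor gene rpn-10 had no optimal summit.

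The lid held the highest of the nearest peaks and had summits at 7 of 9 genes, all within 500 bp. The rpn-3 peak ranked 57 of 2631 with a signal of 109, 180 bp upstream, and stood high in both replicates, at rank 113 in replicate 1 and 62 in replicate 2. The divergent gene on its other side, 264 bp from the summit, was hsp-110, for a cytosolic chaperone. Next came rpn-5 (rank 412, signal 60.9), with the summit 33 bp upstream and 261 bp from the cohesin gene scc-1. Its ranks in the replicates were 246 and 1823. The genes rpn-8 (rank 881, 265 bp upstream) and rpn-11 (rank 1891, 3 bp upstream) encode the pair of lid subunits that form the deubiquitinating module. For the other lid genes, the ranks were 1010 for rpn-7, 1036 for rpn-12 and 1189 for rpn-9. In replicate 1 the ranks were 1069 for rpn-8, 1699 for rpn-11, 1601 for rpn-7, 866 for rpn-12 and 1152 for rpn-9. In replicate 2 they were 2974 for rpn-8, 1944 for rpn-11, 841 for rpn-7, 1846 for rpn-12 and 1577 for rpn-9, so that rpn-7 alone of these had its better rank there. The rpn-7 summit was 387 bp from rpn-7 and only 29 bp from F49C12.9, and the rpn-12 summit was 252 bp from rad-23, a gene for a shuttle factor that brings ubiquitinated proteins to the proteasome. Of the 9 rpn- genes of the lid, only rpn-6.1 and rpn-6.2, the 2 genes for the RPN-6 subunit, lacked an optimal summit.

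Set side by side, the shares with an optimal summit within 2000 bp were 42.9% (15.8 to 75) for the alpha ring, 85.7% (48.7 to 97.4) for the beta ring, 40% (16.8 to 68.7) for the base and 77.8% (45.3 to 93.7) for the lid. With 7 to 10 genes each, these intervals overlap, and differences between the subcomplexes were not tested. The 20S core had 9 of 14 genes (64.3%) and the 19S particle 11 of 19 (57.9%). Within 500 bp the order of the particles turned, with 6 of 14 for the core (42.9%) and 11 of 19 for the 19S particle (57.9%), because pas-1, pas-5 and pbs-5 had only distant optimal summits.

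By pooled signal, the peaks at proteasome genes ranked somewhat above other promoter peaks, though most of them stood higher in replicate 1 than in replicate 2. The median rank of the 20 nearest peaks was 788, against 1094 for the other 1354 optimal peaks with a summit within 500 bp of a protein-coding 5′ end. In the upper 1315 of the list were 15 of the 20, but the median of the other promoter peaks also fell in that part. To set the replicates beside each other, each optimal peak that overlapped a peak of both replicates was given its percentile of signal within each replicate (100 is the highest, 2566 peaks). The mean of both percentiles had a median of 52.2 over the 20 genes, near the middle of all matched peaks. For rpn-3 the mean percentile was 96.6 ± 1.41 (SD, n = 2) and for rpt-2 it was 88.0 ± 13.2. At the other end, pas-1 had 13.7 ± 19 and pbs-6 had 35.2 ± 20.7. The widest gap was at rpt-1 (93.8 in replicate 1 and 4.68 in replicate 2, mean 49.2 ± 63.0) and the next at pbs-7 (81.1 and 15.5, mean 48.3 ± 46.4). The closest values were those of rpn-11, with an SD of 0.634. The median SD was 19.4 at proteasome genes and 17.3 over all matched peaks, so most of the order within the 20 was not resolved by 2 replicates. Replicate 1 gave the higher percentile at 15 of the 20 genes and replicate 2 at 5.

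**Figure D2:**
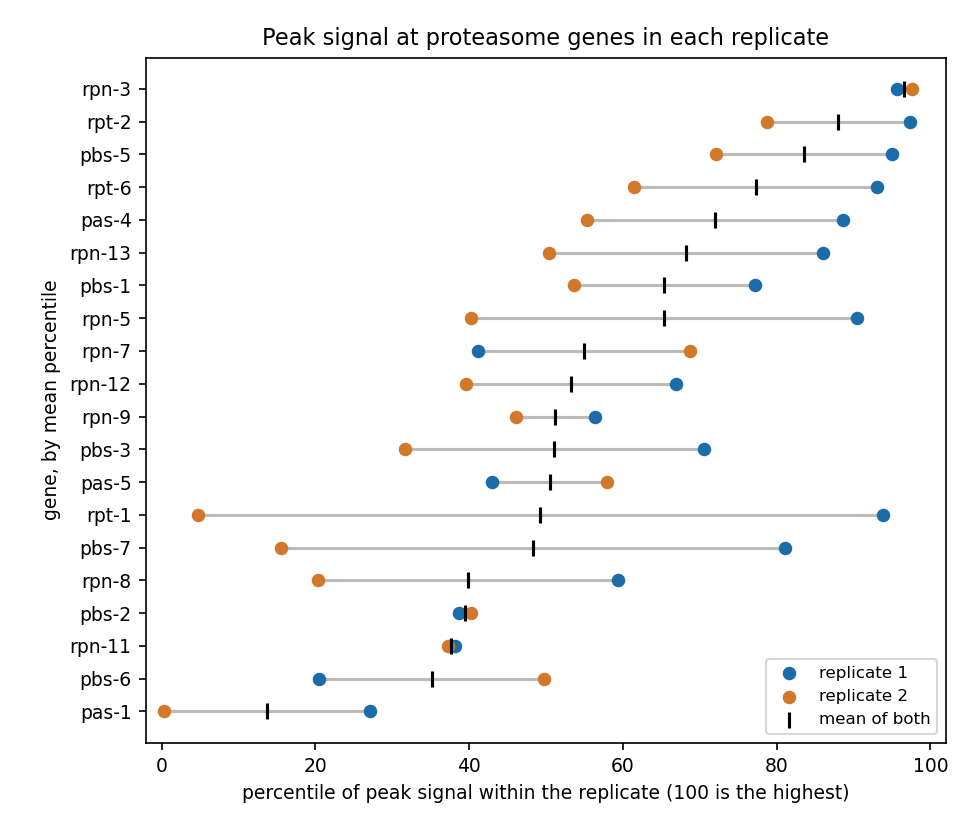
Percentile of peak signal within replicate 1 (blue) and replicate 2 (orange) for the nearest optimal peak of 20 proteasome genes, with the mean of both as a black bar. The 2 values of rpn-3 are 95.6 and 97.6 and those of rpt-1 lie at 93.8 and 4.68.

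Candidate summits were near almost every proteasome gene in both replicates, a measure close to saturation. All 33 genes had a candidate summit within 2000 bp in replicate 1 and 32 had one in replicate 2, pas-6 being the exception, but so had 68.8% and 64.1% of all genes, since these lists also hold background. Among the 2631 highest peaks of each replicate, 20 proteasome genes had a summit within 2000 bp in replicate 1 (60.6%, against 15.8% of all genes). In replicate 2 there were 16 (48.5%, against 13.5%). The same 16 (48.5%) were present in both, against 9.96% of all genes. Those without one in replicate 2 were pas-1, pbs-7, rpn-8 and rpt-1. Where both replicates had a matched peak, their summits were 0 to 65 bp apart with a median of 8 bp, and 16 of 20 were within 20 bp. Over all matched optimal peaks the median was 21 bp. The optimal list was derived from the replicates' lists, so these matches are not independent of it.

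Some of these summits stood in short intervals between divergent genes. Of the 33 proteasome genes, 12 (36.4%) had the 5′ end of a divergently transcribed protein-coding gene within 500 bp upstream, against 9.25% of all genes. Among those 12, 8 had an optimal summit (66.7%), against 35.8% of all genes in such pairs. Among the 21 others, 12 had one (57.1%), against 13.3%. The shares thus lay above the background in both layouts, and whether the layouts differ was not tested. At 14 of the 20 nearest peaks, the summit was within 500 bp of the 5′ end of another protein-coding gene. These neighbours included eif-6, rpb-3, hsp-110, scc-1, mrps-6 (a mitochondrial ribosomal protein gene) and rad-23. Not all were divergent, since rpoa-12 and K05C4.2 are on the strand of pas-1 and pbs-5. The share of other optimal peaks with such a neighbour is not given here, so the count is not shown to be particular to proteasome peaks. For the 14 peaks, the lists do not say which of the neighbours the protein acts on. At 5 genes, rpn-11, rpn-13, rpt-1, rpt-6 and pbs-3, the proteasome gene was alone within 500 bp. Clustered genes of *C. elegans* can be transcribed as operons, and operon membership was not examined.

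The 13 proteasome genes without an optimal summit still had weaker candidates. Every one of the 33 genes had a summit in the pooled list of 30000 candidates within 2000 bp, against 68.6% of all genes, and 27 (81.8%) had one within 500 bp, against 36.6%. By subcomplex, those 27 were 6 of 7 alpha-ring genes (85.7%), 6 of 7 beta-ring genes (85.7%), 6 of 10 base genes (60%) and all 9 lid genes. The alpha ring was thus not the lowest by this measure. The best pooled ranks outside the optimal list were 2971 at rpt-3 (692 bp upstream), 2998 at rpn-6.1 (637 bp downstream), 3242 at pbs-4 (139 bp upstream) and 3617 at pas-7 (246 bp upstream). These 4 fell not far below the optimal list, which ends at 2631. The other 9 ranged from 5097 at pas-3 to 28685 at rpt-4, with pas-2 at 24225. The median rank of the best pooled summit was 1307 over the 33 genes, against 9433 over the 13693 genes with any. Ranks by subcomplex spread widely, with medians of 3617 in the alpha ring, 696 in the beta ring, 4681 in the base and 1036 in the lid. These medians take the best summit within 2000 bp whichever gene is nearest to it. In the beta ring they include rank 32 at pbs-2, nearest to tba-2, and rank 247 at pbs-5, nearest to K05C4.2.

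The SKN-1 core GTCAT, 1 of 7 motifs counted and the one followed further once its share was seen, was found at a larger share of proteasome summits than of other promoter summits. Searched on both strands within 50 bp, it was present at 11 of 20 nearest peaks (55%, Wilson interval 34.2 to 74.2), against 170 of 1354 other promoter peaks (12.6%, 10.9 to 14.4) and 15.9% of all optimal peaks. The genes were pas-1, pbs-1, pbs-2, pbs-5, pbs-6, pbs-7, rpn-13, rpt-2, rpn-7, rpn-11 and rpn-12, so 5 of the 6 beta-ring peaks and 1 to 3 of each other subcomplex. The copies at pas-1 and pbs-5 lay 756 and 1110 bp from the proteasome 5′ end. Of the 17 peaks within 500 bp of the proteasome gene, 9 held GTCAT (52.9%), as did 8 of the 16 with that gene's 5′ end nearest (50%). In windows of the same size 500 bp further upstream GTCAT was present at 1 of 20 (5%), and at the peaks of ribosomal protein genes at 3 of 59 (5.08%). The median GC content of the windows was 44.6% at proteasome peaks and 47.5% at other promoter peaks. The presence of these 5 letters describes the sequence and does not show that SKN-1 or UNC-130 contacts them, which was not tested.

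**Figure D3:**
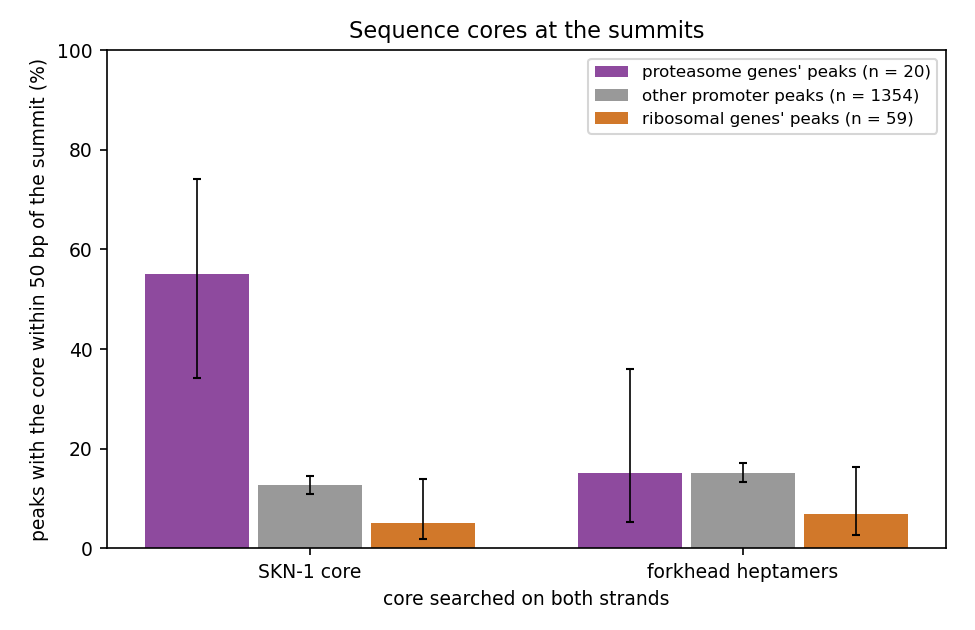
Share of peaks, in percent, with the SKN-1 core GTCAT (left) or a forkhead heptamer TGTTTAC or TGTTTGC (right) within 50 bp of the summit, at proteasome genes (n = 20), other promoter peaks (n = 1354) and ribosomal protein genes (n = 59, which are also among the other promoter peaks). Bars start at 0 and whiskers are 95% Wilson intervals. The core stands at 55% against 12.6%, while the forkhead heptamers stand at 15% against 15.1%.

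Most copies lay to the side of the pooled summit. The 12 copies (rpn-11 had more than 1) were 12 to 48 bp from the summit with a median of 34 bp, against 24 bp for the 184 copies at other promoter peaks. At rpn-11 and rpn-12 the summits of the replicates were 65 and 35 bp apart, so the distances there are uncertain. On the gene's own orientation, 11 of the 12 (91.7%) were on the side of the summit towards the 3′ end of the gene, against 46.7% of the copies at other promoter peaks, and 9 (75%) read on the gene's strand, against 59.2%. Side and strand were those of the proteasome gene even at pas-1, pbs-5 and rpn-7, where another 5′ end was nearer. At rpn-7 that nearer gene, F49C12.9, is divergent, so its orientation would turn the side. In the window of rpt-2 above, the core was centred 27 bp past the summit and 118 bp before the 5′ end. Within 25 bp of the summit only 2 of 20 peaks held it (10%, against 6.35% of other promoter peaks), and within 100 bp 12 of 20 did (60%, against 22.6%). The letters were also common at proteasome genes without an optimal summit, at 5 of 13 of their highest pooled summits (38.5%). In promoter windows set by the 5′ end alone, from 250 bp before it to 50 bp after, 20 of 33 proteasome genes held GTCAT (60.6%), against 39.6% of all promoters of this length and 33.7% of those of genes with an optimal summit within 500 bp. The second core, ATCAT, which can overlap the first as at rpt-2, was at 25% of proteasome peaks, 12.9% of other promoter peaks and 18.2% of all optimal peaks. In the windows 500 bp further upstream of the proteasome peaks it was at 4 of 20 (20%), and in promoter windows at 57.6% of proteasome genes and 55.8% of all genes.

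The forkhead heptamers were about as frequent as at other promoter peaks. TGTTTAC or TGTTTGC was within 50 bp at 3 of 20 proteasome peaks (15%, interval 5.24 to 36), against 15.1% of other promoter peaks (13.3 to 17.1), and in 11.8% of all promoter windows. They were TGTTTAC at rpt-6, 35 bp from the summit, and TGTTTGC at pbs-2 and rpn-11, each 13 bp from it. A lack of these letters in a window says nothing of other forkhead sites. No proteasome peak held the E-box CACGTG, the CRE-like TGACGTCA or the GA repeat GAGAGAGA, which stood at 5.47%, 1.03% and 3.40% of other promoter peaks. A count of 0 of 20 allows a share of up to 15% (3 counts of the total), which covers each of these values. Over 100 bp to either side, the proteasome peaks had a median GC content of 36% (29.4 to 52.2), against 40.3% at other promoter peaks.

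Some genes that work with the proteasome also had summits. Of 24 such genes, listed from general knowledge, 11 (45.8%, interval 27.9 to 64.9) had an optimal summit within 2000 bp, against the 15.4% of all genes, and 9 (37.5%) within 500 bp. The strongest was at cdc-48.1, for the AAA ATPase that extracts ubiquitinated proteins, with rank 3 (signal 194, 167 bp upstream), whereas its paralogue cdc-48.2 had none. The deubiquitinase genes ubh-4 (rank 1722, 14 bp upstream) and usp-14 (rank 1838, 111 bp) and aip-1, for a factor that binds the 19S particle under arsenite stress (rank 1977, 91 bp), had low-ranking summits next to their 5′ ends. The polyubiquitin gene ubq-1 had one 447 bp downstream (rank 345). The shuttle factor genes ubql-1 and rad-23 each had one, ubql-1 at rank 266 and rad-23 at the summit it shares with rpn-12. The others with a summit were the nuclear import gene akir-1, the ubiquitin fusion gene ubq-2 and the ubiquitin ligase genes ufd-2 and eel-1. No optimal summit lay within 2000 bp of skn-1, or of png-1, ddi-1, sel-1 and sel-11, whose products release or process SKN-1A, nor of the activator gene psme-3 or the small lid gene dss-1. The remaining genes of the list, uba-1, ufd-1, npl-4.1, npl-4.2 and hecd-1, had none either.

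**Figure D4:**
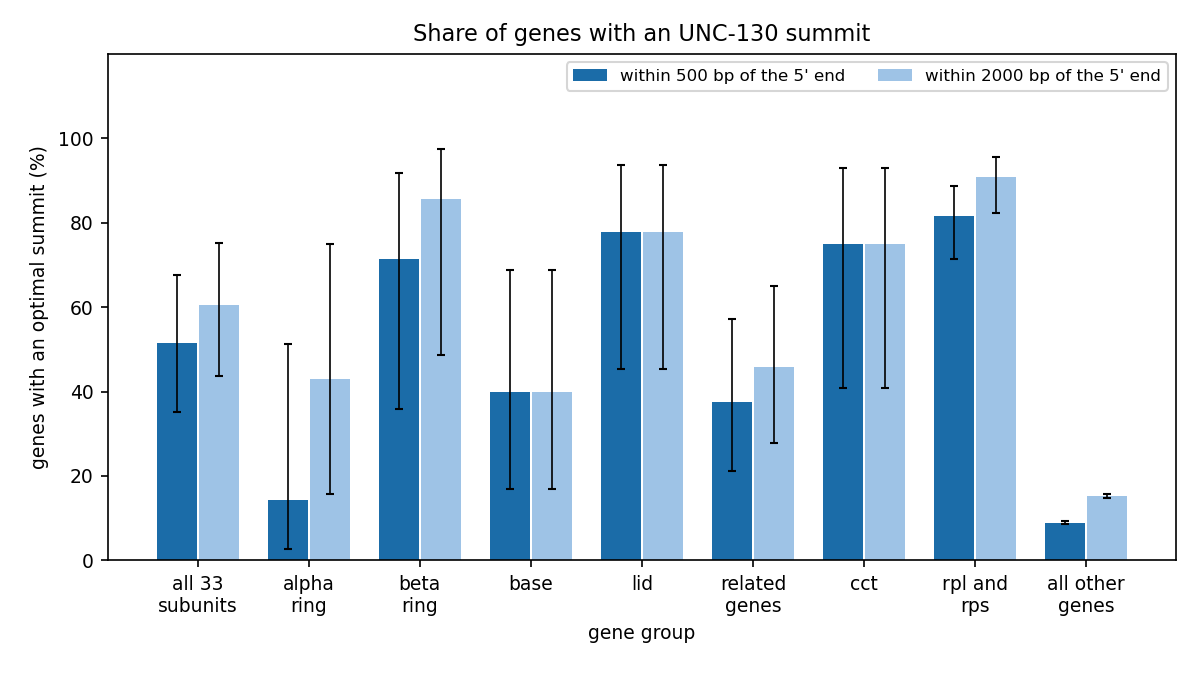
Share of genes, in percent, with an optimal UNC-130 summit within 500 bp (dark) or 2000 bp (light) of the 5′ end, for all 33 proteasome genes, the 4 subcomplexes, 24 related genes, the cct and ribosomal protein genes and all other protein-coding genes. Whiskers are 95% Wilson intervals. The proteasome genes stand at 51.5% and 60.6%, between all other genes at 8.92% and 15.3% and ribosomal protein genes at 81.6% and 90.8%.

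Other large cytosolic complexes set the scale. The proteasome share of 60.6% stood beside 6 of 8 genes (75%, interval 40.9 to 92.9) for the CCT chaperonin, 1 of 6 (16.7%, 3.01 to 56.4) for the csn- genes of the COP9 signalosome, which is related in structure to the lid, and 69 of 76 (90.8%, 82.2 to 95.5) for the rpl- and rps- genes of ribosomal proteins. The rule of assignment changed this order. With each summit given only to the gene with the nearest 5′ end, the shares were 16 of 33 (48.5%, 32.5 to 64.8) for the proteasome, 1 of 8 (12.5%, 2.24 to 47.1) for the CCT chaperonin and 37 of 76 (48.7%, 37.8 to 59.7) for ribosomal proteins, against 9.33% of all genes. A summit was therefore not particular to proteasome genes. Nor was GTCAT, which was at 55% of proteasome peaks (34.2 to 74.2), 6 of 11 peaks of the related genes (54.5%, 28.0 to 78.7), 2 of 6 CCT peaks (33.3%, 9.68 to 70) and 5.08% of ribosomal protein gene peaks (1.74 to 13.9). One of the related peaks, that of rad-23, is also the peak of rpn-12.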

How the data were processed

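ChIP-seq peak lists were analysed for both replicates of 1 group. The deposited lists on ce11 (WBcel235) give a position, a summit offset and a signal value per peak. The signal was assigned by the authors' peak caller, and the authors deposited a list for each replicate, a list for both pooled, and the optimal list, which per the files' deposited notes and names passed an irreproducible discovery rate threshold. Which aligner, peak caller and threshold were used is not given in the sources used here. The lists used here hold no read counts, so depth is unknown. The optimal peaks are those of the pooled list with the highest signal.

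A summit was the start plus the offset, counted from 1. Distances ran to the 5′ end of gene models of Ensembl release 115. For each gene, the nearest optimal summit was taken. Peaks of 2 lists matched when they overlapped by at least 1 bp, and of several overlapping peaks the one with the highest signal was taken. With 1 group and no control analysed, no test was run and shares were set beside those of all genes. The members and lists were chosen with earlier results of these data known. Every proteasome gene is named, and sequences were taken in order of pooled signal from genes off the first chromosome whose own 5′ end was nearest, leaving out windows that reached a UTR by more than 30 bases and that of rpn-5, which enters one. Alternatives were other distance limits, transcript 5′ ends, the upper 1315 peaks, each replicate alone, peak overlap in place of the summit, and other motif windows. The functions were tested on made-up summits. Python 3.11.15, numpy 2.4.6, scipy 1.17.1 and matplotlib 3.10.9 were used.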

Additional observations from a re-analysis of the deposited data

How the results depend on the processing

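Of 49 alternative values, 43 stayed within the spread of the replicates or within 1.5 times the count. Most of the values are counts, which have no direction that could change. Shorter distance limits and the upper 1315 peaks can only keep or drop genes of the main set. The median summit position of -194 bp moved to -149 bp with a limit of 500 bp, -164 bp with 1000 bp, -180 bp with transcript 5′ ends and -149 bp with the upper 1315 optimal peaks, and ranged from -201 to -192 bp when 1 replicate was left out, the SD between the replicates being 6.36 bp. The genes with a summit numbered 16 to 21 over all alternatives, against 20. Without replicate 1, pas-1, pbs-7, rpn-8 and rpt-1 were lost and 16 remained. Without replicate 2 the same 20 remained, and transcript 5′ ends added rpt-4. GTCAT, a result taken up with its alternatives after seeing the data, was at 11 peaks within 50 bp of the summit and at 2 within 25 bp, a smaller window. Depth is unknown, and 20 peaks limit every motif share. No paired analysis was possible because there is 1 group.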

Other observations

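A longer form of the SKN-1 core, GTCATC, was examined after its values were seen in the sequences. It was within 50 bp of the summit at 7 of 20 proteasome peaks (35.0%), at pas-1, pbs-2, pbs-7, rpn-13, rpt-2, rpn-7 and rpn-11, against 2.14% of 1354 other promoter peaks and 1.69% of 59 peaks of ribosomal protein genes. In the promoter windows it was present at 14 of 33 proteasome genes (42.4%), against 11.4% of all promoters. The share was 45% of the 20 proteasome promoters with an optimal summit and 38.5% of the 13 without. Another form chosen in the same way, TGTCAT, was at 30% of proteasome peaks and 3.32% of other promoter peaks. Since these forms were picked from the members' own sequences, the shares are descriptions and were not tested.

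Among the related genes with an optimal summit, GTCAT was within 50 bp of it at 6 of 11 (54.5%), namely usp-14, aip-1, ubq-1, rad-23, cdc-48.1 and eel-1, against 12.6% of other promoter peaks and 15.9% of all optimal peaks. This share is close to the 55% of proteasome peaks. Proteasome genes were on each chromosome but X, where none of the 33 lies.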
